A study of Mus musculus with 12 samples.

Results

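Single myofibers were set against whole muscle in 6 of the 12 RNA-seq libraries of this mouse series. The members are the 3 libraries that the submitters labelled as made from 1 myofiber each and the 3 that they labelled as made from whole muscle, while pools of 5 and of 20 fibers are not described. All 6 came from the extensor digitorum longus (EDL), a fast muscle of the lower hind limb, of C57BL/6 mice, and the labels name no genotype change and no treatment. Single myofibers were lysed directly in the diluted buffer of the SMART-Seq HT kit, which copies polyadenylated RNA of very few cells into full-length cDNA and amplifies it by PCR. Whole muscle RNA came from Trizol, a phenol-based extraction, and went into the same kit. Fiber isolation and the route to RNA therefore changed together and cannot be told apart. A single fiber library is 1 cell, so the fiber group is a sample of 3 cells. The labels do not say whether the libraries came from separate mice, so each p-value covers only the variation among these libraries, which may be technical.

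A myofiber is a long syncytium with many nuclei, and its mRNA is dominated by the contractile apparatus and the enzymes that fuel it. Fibers are typed by their myosin heavy chain: Myh7 marks slow fibers, and Myh2, Myh1 and Myh4 mark the fast types IIA, IIX and IIB, of which IIB is the fastest and most glycolytic. Whole muscle also holds capillaries, connective tissue, immune cells, nerve, fat, tendon and satellite cells, the muscle stem cells that lie on the fiber surface.

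The totals of counted reads lay between 12685900 and 27787120 in single fibers and between 8088137 and 20895762 in whole muscle. Levels are given as CPM, the read count relative to the library total after TMM scaling, which takes most genes as unchanged. The TMM factors were 0.60 to 0.82 in single fibers and 1.40 to 1.51 in whole muscle, so the scaling multiplies the fiber to muscle ratio of every gene by 2.11 (1.08 on the log2 scale) relative to its share of reads. The fibers resembled each other less (Pearson r of log2 CPM 0.874 to 0.925) than the whole muscle libraries did (0.969 to 0.980). The SD of log2 CPM over replicates had a median of 0.52 in single fibers and 0.15 in whole muscle over 6352 genes of at least 10 CPM. Single fiber 2 stood apart from the other fibers on the second principal component, and values that rest on it are given below. After thinning to 8088137 reads, 17082 ± 2418 genes had a read in single fibers and 19438 ± 221 in whole muscle (SD, n = 3 each; exact permutation p = 0.3, two-sided, adjusted 0.36 over 6 library measures; 3 against 3 libraries cannot give p under 0.1). At 5 reads or more the groups did not overlap, with 11982, 10529 and 11998 genes in single fibers 1 to 3. Whole muscle libraries 1 to 3 had 14516, 14266 and 14458. At 1 read, fiber 1 had 19526, within the whole muscle range. Olfactory, vomeronasal and taste receptor genes, taken as a measure of stray reads, held 0.00708%, 0.000943% and 0.00225% of reads in fibers 1 to 3. Whole muscle held 0.0018% to 0.00236%. Without thinning, 26.7%, 4.85% and 9.89% of these genes had a read in fibers 1 to 3, against 2.32% to 4.85% in whole muscle.

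Of 14028 genes tested with edgeR's quasi-likelihood test, 4716 (33.6%) had a Benjamini-Hochberg adjusted p under 0.05, the threshold for a call throughout. Higher in single fibers were 1945 (13.9%) and lower 2771 (19.8%), and the median log2 fold change of all genes tested was −0.12. Abundant genes were called higher more often. Among genes with a mean of at least 100 CPM, 34.8% (exon length 2 to 4 kb) to 59.5% (over 8 kb) were higher, by class of exon length. Lower in the same classes were 2.63% to 6.03%. Counts for groups of abundant genes below are to be read against these shares. The lower calls held more large changes: 2146 lay more than 4-fold lower in single fibers, while 765 lay more than 4-fold higher. The levels of the groups did not overlap for 7373 genes (52.6%), 20.2% with the fibers above and 32.4% with the fibers below. As a plain share of all reads, 1689 of the 1945 higher genes were still larger on average in single fibers, and for 660 every fiber lay above every whole muscle library. Upper-quartile scaling put 1591 genes higher and 3022 lower and moved the median to −0.26. In shares of reads the median log2 ratio was -1.20 over all genes tested. It lay below 0 for several groups whose scaled median lies above 0. These were the sarcomere scaffold (-0.34), triad (-0.57), dystrophin complex (-0.59), myotendinous junction (-0.44), glycolysis (-0.49), creatine buffering (-0.66) and respiratory chain (-0.29). Others were mitochondrial ribosomal proteins (-0.58), the citric acid cycle (-1.01), the proteasome (-0.49), mechanical stress (-0.58), myogenic factors (-0.66) and the clock (-0.22). It was near 0 for fast filament (0.07), heat shock (0.05) and neuromuscular junction genes (0.03). Among higher genes, every fiber share lay above whole muscle for 2 of 14 chaperone, 0 of 11 atrophy and 1 of 7 neuromuscular junction genes. For immediate early genes it was 12 of 22. Leaving out a library moved the count of calls more than scaling did. Without single fiber 1, 2 or 3, 4937, 7617 and 4336 genes were called, against 1753, 1540 and 1637 without whole muscle 1, 2 or 3, and no call changed its sign.

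Outside the gene lists below, the 12 largest rises were taken among protein-coding genes of at least 10 CPM whose groups did not overlap. Rrad, a small GTPase that inhibits calcium channels, had 1548, 17.3 and 1197 CPM in single fibers 1 to 3, against 4.84, 5.03 and 6.29 CPM in whole muscle 1 to 3. Sox9, a transcription factor known from cartilage, had 272, 9.96 and 792 CPM in single fibers, against 2.87, 3.07 and 2.94 CPM in whole muscle. Every fiber lay above every whole muscle library, with fiber 2 nearest to them. Otud1, a deubiquitinase, was steadier, with 708, 223 and 902 CPM in single fibers and 13.5, 11.2 and 10.8 CPM in whole muscle (log2 fold change 5.69, SE 0.57, adjusted p = 0.000865). Runx1, a transcription factor that denervated muscle is known to induce, rose by 6.14 on the log2 scale (SE 1.23, adjusted p = 0.00903). The phosphatase Dusp2, the kinase Map3k8 and the histone demethylase Kdm6b had 6.90, 6.04 and 5.67. Sgms2, Midn, Tgif1, Csrnp1 and Igsf9b completed the 12, at 5.38 to 6.90. The calls of Rrad, Sox9, Sgms2, Dusp2, Runx1 and Igsf9b were lost with any 1 whole muscle library left out, with adjusted p of 0.0541, 0.0539 and 0.0544 for Rrad without whole muscle 1, 2 and 3.

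The largest falls in the same class had no read in any fiber or a single read. Igfbp7, a secreted protein of vessel walls, had 0 reads in all 3 fibers and 159, 167 and 202 CPM in whole muscle, at least 2376-fold lower in single fibers when 3 reads over the group are taken as the floor. Gpihbp1, which anchors lipoprotein lipase on capillary endothelium, was at least 1010-fold lower, and Adgrl4, another endothelial receptor, at least 470-fold lower. Mfap4, a matrix microfibril protein, and the chemokine Ccl6, the proteoglycan Srgn and the protease inhibitor Timp4 were also at 0 reads in every fiber, with bounds of 294-fold to 359-fold. Ucp1, the uncoupling protein of brown fat, was at 0 in the fibers and at 82.4, 9.01 and 9.95 CPM in whole muscle, so whole muscle 1 carried most of it. Cxcl14, Adgrf5, F13a1 and Cd93 had 1 read each over the 3 fibers.

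The label "single myofiber" was checked on markers of the cell types that surround a fiber. In bulk libraries, fewer cells of a type and less RNA per cell cannot be told apart. All 18 endothelial markers were lower in single fibers, with a median log2 fold change of −6.65. Their summed level was 2.39 to 15.6 CPM in single fibers and 1250 to 1515 CPM in whole muscle. Of the 18, 13 lay within the density of stray reads in the fibers. The adhesion protein Esam and the apelin receptor Aplnr had 0 reads in every fiber, against 41.4 to 51.0 CPM and 32.3 to 39.4 CPM in whole muscle, at least 600-fold and 481-fold lower. Pecam1, the CD31 antigen, had 1 read over the fibers and 2901 over whole muscle, a ratio of 1640 with a counting interval of 294 to 64811 (95%, Clopper-Pearson; such intervals cover counting error only).

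**Figure D1:**
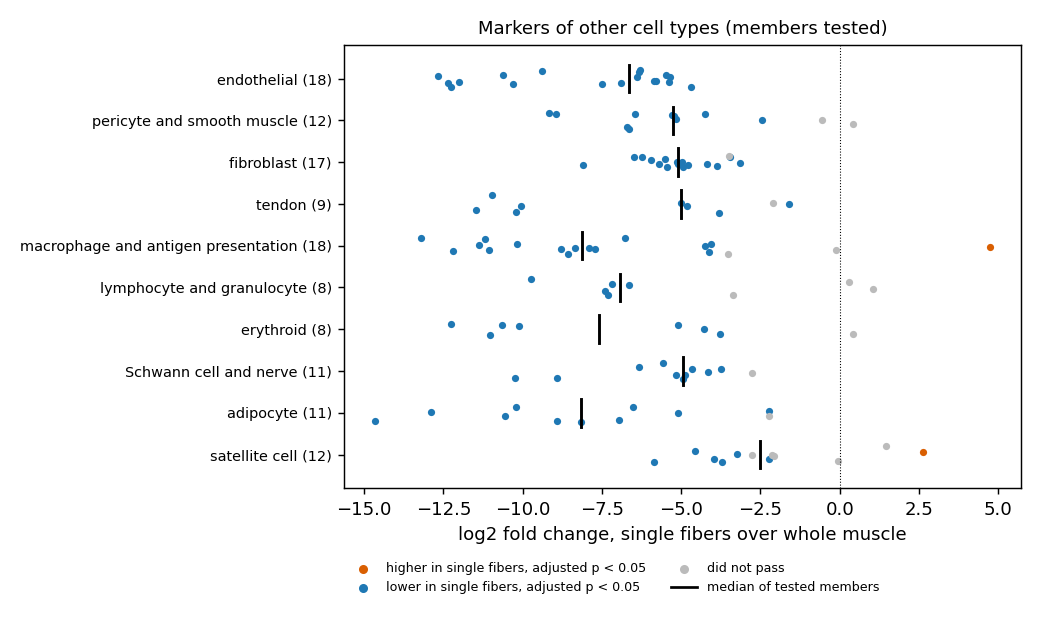
Log2 fold change of single fibers over whole muscle (x axis) for the tested members of 10 marker lists (y axis, number tested in brackets); orange points were higher, blue points lower and grey points did not pass at adjusted p under 0.05, and the black bar is the list median. Most members lie far to the left of 0, with Cd68 and Sdc4 as the points called higher.

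Most markers of blood, fat and nerve were also lower. The beta globin Hbb-bs had 3 reads over the fibers and 365, 386 and 502 CPM in whole muscle. Of 8 erythroid markers 7 were lower. Bpgm, which many cells express, was at 79.0, 167 and 67.7 CPM in single fibers, against 73.0, 83.3 and 78.2 CPM in whole muscle. Of 11 adipocyte markers 10 were lower (median −8.16, or −6.95 with genes at 0 reads set at their bound), and 7 of the 11 lay within the density of stray reads. The summed level of the list was 286, 1156 and 94.0 CPM in single fibers, against 3783, 3486 and 3503 CPM in whole muscle. Most of the fiber sum was Car3, a carbonic anhydrase that muscle fibers also express, with 269, 1125 and 83.8 CPM in single fibers and 2254, 2410 and 2198 CPM in whole muscle (adjusted p = 0.0696). Adipsin (Cfd) had 1 read over the fibers and 681 to 916 CPM in whole muscle, and Adipoq, adiponectin, had 2 reads. Of 11 Schwann cell and nerve markers 10 were lower, among them Mbp, a myelin gene, with 0 to 1.93 CPM in single fibers and 47.1 to 61.5 CPM in whole muscle. With any 1 whole muscle library left out 6 or 7 of the nerve list were lower, and its median of −4.95 was −8.00 without single fiber 1.

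Reads of fibroblast genes remained in part, mainly in fiber 1. Of 17 fibroblast markers 16 were lower (median −5.09, or −8.44 without single fiber 1), but their summed level was 345, 14.6 and 62.1 CPM in single fibers 1 to 3, against 5175, 4774 and 5506 CPM in whole muscle. Fiber 1 held most of what was left: Col3a1, a fibrillar collagen, had 77.0, 4 and 10.8 CPM in single fibers, against 1420, 1248 and 1317 CPM in whole muscle. The proteoglycan Dcn had 47.9, 2.21 and 2.32 CPM in single fibers, against 853, 718 and 805 CPM in whole muscle (adjusted p = 0.0143; 0.0529 to 0.0558 with any 1 whole muscle library left out). Among the 16 called fibroblast markers fiber 1 was the fiber nearest to whole muscle for 14. Without single fiber 3 the fibroblast count was 11, and with any 1 whole muscle library left out it was 6. Of 9 tendon markers 8 were lower (median −5.02, or −8.31 without single fiber 1; 4 lower with any 1 whole muscle library left out), with tenomodulin (Tnmd) at 0 reads in every fiber, at least 249-fold lower. Thbs4 had 4.88, 38.5 and 3.19 CPM in single fibers, against 73.9, 58.9 and 68.6 CPM in whole muscle, and did not pass (adjusted p = 0.0938). The summed level of the tendon list was 17.5, 41.0 and 6.37 CPM in single fibers, against 269, 217 and 254 CPM in whole muscle. Most of the fiber 2 sum was Thbs4. Pericyte and smooth muscle markers were lower in 10 of 12, such as Rgs5 with 0.0596 to 0.869 CPM in single fibers and 174 to 211 CPM in whole muscle. Of this list Des, which muscle fibers themselves express, and Cspg4 did not pass.

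Of 18 macrophage and antigen presentation markers 15 were lower (median −8.14, or −7.74 with bounds). H2-Ab1, a class II antigen presentation chain, had 0 reads in the fibers and 59.7 to 70.1 CPM in whole muscle, at least 867-fold lower, and the invariant chain Cd74 and Lyz2 were at most 1.44 CPM in any fiber. Cd68, a lysosomal glycoprotein used as a macrophage marker, went the other way: 234, 1.37 and 288 CPM in single fibers, against 6.07, 6.25 and 7.32 CPM in whole muscle (log2 fold change 4.73, SE 1.41, adjusted p = 0.0358). The levels overlap, since fiber 2 lay below whole muscle, and the call was lost without single fiber 1 or 3 or any 1 whole muscle library (adjusted p = 0.0722 to 0.132). C1qa, H2-Eb1 and 3 further members of the list had 0 reads in every fiber, while the rest of the list had reads in at least 1 fiber. In the fibers 11 members lay within the density of stray reads, and 2 members did not pass. The summed level of the list, Cd68 included, was 270, 19.6 and 309 CPM in single fibers, against 675, 679 and 751 CPM in whole muscle. Of 8 lymphocyte and granulocyte markers tested, 5 were lower (median −6.92, or −3.51 with bounds; 3 or 4 with any 1 whole muscle library left out), and 4 of the 8 had no read in any fiber.

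Satellite cell markers fell in 6 of 12 (3 with any 1 whole muscle library left out), with a median of −2.51. The Notch targets Heyl and Hey1 had 0 to 0.56 CPM in single fibers and 2.77 to 12.9 CPM in whole muscle. Sdc4, a heparan sulfate proteoglycan, rose, with 162, 57.2 and 137 CPM in single fibers and 16.8, 20.8 and 20.1 CPM in whole muscle (log2 fold change 2.62, SE 0.41, adjusted p = 0.00389). The cadherin Cdh15 had 16.2, 7.87 and 14.9 CPM in single fibers, against 12.6, 15 and 12.6 CPM in whole muscle. Hes1 had 8.32, 104 and 15.7 CPM in single fibers, against 15.6, 15.4 and 15.7 CPM in whole muscle. Neither passed.

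All 3 single fibers were dominated by Myh4, the type IIB myosin heavy chain. The genes Myh2, Myh1 and Myh4 lie side by side on the plus strand of chromosome 11 (GRCm38, 67171027 to 67260446). Of the reads per kilobase on Myh1, Myh2, Myh4 and Myh7, Myh4 held 99.3%, 96.0% and 99.5% in single fibers 1 to 3, against 90.2%, 90.7% and 90.4% in whole muscle (98.3 ± 1.99% against 90.4 ± 0.236%; exact permutation p = 0.1, two-sided, the smallest that 3 against 3 libraries allow, adjusted 0.2). The fiber and muscle shares do not overlap. Myh4 itself had 24783, 24904 and 18423 CPM in single fibers and 8290, 12340 and 10628 CPM in whole muscle (log2 fold change 1.12, SE 0.33, adjusted p = 0.035). As a share of all reads it was level, at 1.63%, 1.5% and 1.5% in single fibers and 1.25%, 1.78% and 1.49% in whole muscle. The call of Myh4 was lost without single fiber 1 or any 1 whole muscle library (adjusted p = 0.0554 to 0.173).

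The fibers differed in the other myosins, and of 8 myosin heavy chains tested 1 was higher and 2 lower (median -1.15; 0 higher and 1 lower with any 1 whole muscle library left out). Myh1, type IIX, had 47.0, 925 and 17.5 CPM in single fibers and 658, 881 and 846 CPM in whole muscle, so fiber 2 reached the muscle level while fibers 1 and 3 lay far under it. Its share of the 4 myosins was 3.37% in fiber 2, against 0.178% and 0.0893% in fibers 1 and 3. Myh2, type IIA, had 143, 205 and 97.0 CPM in single fibers, against 288, 410 and 335 CPM in whole muscle, and fell (log2 fold change −1.21, SE 0.33, adjusted p = 0.0258; 0.0665 to 0.115 with any 1 whole muscle library left out). Part of the exon sequence of Myh1 and Myh2 is shared with other loci (31.8% and 28.9% of 50-base windows), so low Myh1 and Myh2 reads in a Myh4-rich fiber are uncertain. Myh7, the slow myosin, had a single read over the 3 fibers and 44.9, 121 and 61.6 CPM in whole muscle.

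**Figure D2:**
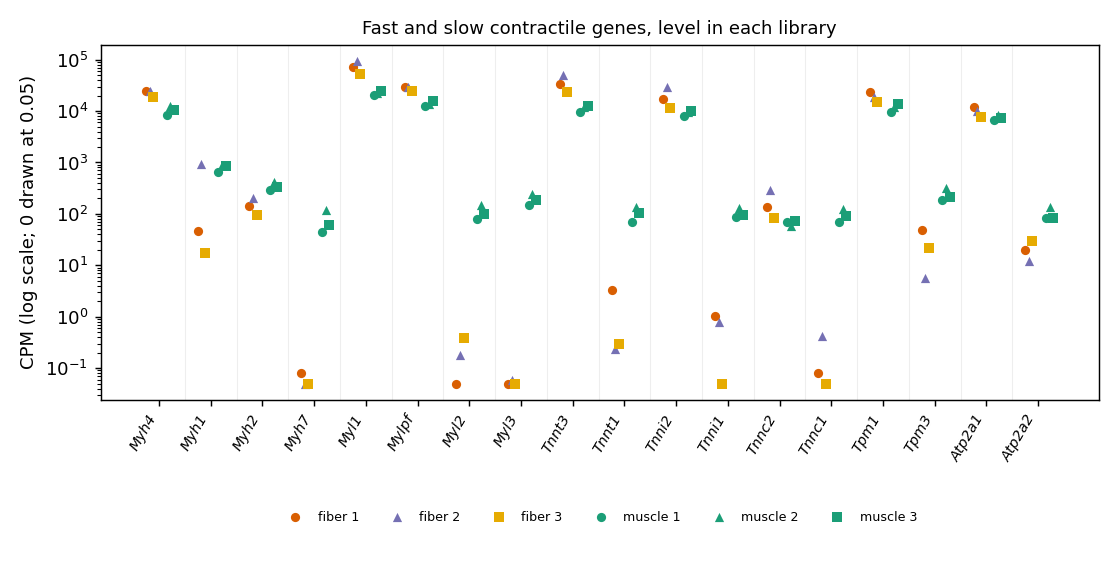
Level of fast and slow contractile genes in each library (y axis, CPM on a log scale with 0 drawn at 0.05; x axis, genes), single fibers at the left and whole muscle at the right of each gene. The slow genes Myh7, Myl2, Myl3, Tnnt1, Tnni1 and Tnnc1 lie near 0 in the fibers, and Myh1 spreads from 17.5 CPM in fiber 3 to 925 CPM in fiber 2.

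The slow partners of the fast filament genes were nearly absent from the fibers. Of 12 slow thick and thin filament genes 9 were lower and 1 higher (median −5.24; 6 or 7 lower with any 1 whole muscle library left out). The slow light chain Myl3 had a single read over the 3 fibers and 14186 over whole muscle, a ratio of 8021 with a counting interval of 1439 to 316841. Myl2 had 0, 0.179 and 0.386 CPM in single fibers, against 79.5, 149 and 98.9 CPM in whole muscle. Tnnc1, the slow troponin C, had 0.08, 0.418 and 0 CPM in single fibers and 69.3, 126 and 93.0 CPM in whole muscle (log2 fold change −8.92, SE 0.74, adjusted p = 0.000467). Tpm3, slow tropomyosin, was lower but present, at 49.4, 5.79 and 22.1 CPM in single fibers and 187, 319 and 217 CPM in whole muscle (adjusted p = 0.0122; 0.0503 to 0.0551 without single fiber 3, whole muscle 2 or whole muscle 3). The exception was Mybpc1, the slow-type myosin binding protein C, with 2302, 4542 and 1459 CPM in single fibers and 536, 652 and 571 CPM in whole muscle (log2 fold change 2.24, SE 0.44, adjusted p = 0.00852). Its adjusted p was 0.0539 to 0.0588 with any 1 whole muscle library left out. Actn2, an alpha actinin, had 147, 896 and 87.1 CPM in single fibers and 337, 460 and 421 CPM in whole muscle and did not pass.

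Fast filament genes rose moderately on the scaled level: 6 of 12 were higher and none lower (median 1.17), a count of 1 with any 1 whole muscle library left out and of 4, 7 and 8 without single fiber 1, 2 and 3. Acta1, skeletal actin, had 123945, 77271 and 67263 CPM in single fibers and 28011, 32595 and 35316 CPM in whole muscle (log2 fold change 1.48, SE 0.40, adjusted p = 0.0245; 0.111 to 0.134 with any 1 whole muscle library left out). In shares of reads Acta1 was 8.15%, 4.66% and 5.49% in single fibers and 4.22%, 4.71% and 4.94% in whole muscle, with overlap. Myl1 and Tnnt3, fast light chain and fast troponin T, had log2 fold changes of 1.69 and 1.63 and kept a larger share of reads in every fiber (Myl1 4.21% to 5.75% in single fibers, 3.12% to 3.44% in whole muscle). Both calls were lost with any 1 whole muscle library left out (adjusted p = 0.0803 to 0.0995). Myoz3, a Z-disc protein of fast fibers, rose by 2.12 (SE 0.28, adjusted p = 0.00213). Tnnc2, the fast troponin C, had 134, 296 and 83.2 CPM in single fibers and 69.4, 56.9 and 73.0 CPM in whole muscle and just missed the threshold (adjusted p = 0.0505); 54.9% of its windows are shared with other loci.

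Several genes of the giant sarcomere proteins and of the Z-disc rose more than 4-fold. Of 20 scaffold genes 10 were higher and 1 lower (median 0.78; 5 or 6 higher with any 1 whole muscle library left out). Ttn, titin, had 20498, 24136 and 18256 CPM in single fibers and 4699, 5120 and 4958 CPM in whole muscle, with no overlap (log2 fold change 2.09, SE 0.31, adjusted p = 0.00324). Its share of reads was 1.35% to 1.49% in single fibers and 0.694% to 0.74% in whole muscle. Xirp2, an actin-binding repeat protein of the Z-disc, had 6760, 3111 and 5637 CPM in single fibers and 429, 467 and 463 CPM in whole muscle (log2 fold change 3.51, SE 0.38, adjusted p = 0.00113). Flnc, filamin C, which gathers at damaged sarcomeres, had 1657, 171 and 1379 CPM in single fibers and 51.4, 68.9 and 61.1 CPM in whole muscle; it lay above whole muscle in every fiber, least in fiber 2. Its log2 fold change was 4.14 (SE 0.77, adjusted p = 0.00727; 0.0503 and 0.0507 without whole muscle 1 and 3). Neb, nebulin, rose by 1.74 (SE 0.37; adjusted p = 0.0109, or 0.0677 to 0.0718 with any 1 whole muscle library left out).

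At the triad, where the surface membrane signals calcium release, 8 of 20 genes were higher and 2 lower (median 0.53, or 0.30 without single fiber 1; 2 higher and 2 lower with any 1 whole muscle library left out). Ryr1, the calcium release channel, had 1800, 1144 and 1233 CPM in single fibers and 190, 213 and 238 CPM in whole muscle (log2 fold change 2.70, SE 0.30, adjusted p = 0.00119). Stac3, an adaptor of the release machinery, went the other way, with 18.6, 16 and 19.1 CPM in single fibers and 105, 120 and 118 CPM in whole muscle (log2 fold change −2.68, SE 0.24, adjusted p = 0.000557). The groups overlap for neither gene. Atp2a2, the slow calcium pump, fell by 2.29, while the fast pump Atp2a1 and parvalbumin (Pvalb), the calcium buffer of fast fibers, did not pass (log2 fold changes 0.40 and 0.66). In the dystrophin complex and costamere 5 of 18 were higher and 2 lower (median 0.48; 1 higher and 0 lower with any 1 whole muscle library left out). Dmd, dystrophin, had 465, 276 and 372 CPM in single fibers and 83.3, 85.4 and 81.7 CPM in whole muscle (log2 fold change 2.15, SE 0.27, adjusted p = 0.002). Its homologue Utrn had 12.7, 6.56 and 8.40 CPM in single fibers and 25, 25.8 and 25.6 CPM in whole muscle (log2 fold change −1.47, SE 0.32, adjusted p = 0.0116; 0.0545 to 0.0614 with any 1 whole muscle library left out).

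Glycolysis and glycogen genes were mixed, with 6 of 22 higher and 3 lower (median 0.59). With any 1 whole muscle library left out, 1 or 2 were higher and 1 lower, and without single fiber 2 or 3, 10 and 9 were higher. Hk2, the inducible hexokinase, had 1285, 613 and 1838 CPM in single fibers and 66.5, 75.9 and 70.1 CPM in whole muscle (log2 fold change 4.14, SE 0.45, adjusted p = 0.00114). Pgam2, muscle phosphoglycerate mutase, rose by 2.03 (SE 0.36, adjusted p = 0.00617) and Aldoa, aldolase A, by 1.67 (SE 0.38, adjusted p = 0.0133). As a share of reads Aldoa was 2.46% to 3.85% in single fibers and 1.99% to 2.13% in whole muscle. The call of Aldoa was lost with any 1 whole muscle library left out (adjusted p = 0.0817 to 0.0888) and that of Pgam2 without whole muscle 1 or 2 (0.0504 and 0.0534). Slc16a3, the lactate exporter MCT4, fell, with 56.1, 46.0 and 57.2 CPM in single fibers and 184, 229 and 214 CPM in whole muscle (log2 fold change −1.98, SE 0.24, adjusted p = 0.0017). Ckm, muscle creatine kinase, rose to 36876, 26218 and 26256 CPM in single fibers, against 6811, 8388 and 8374 CPM in whole muscle (log2 fold change 1.92, SE 0.33, adjusted p = 0.00589; 0.0513 and 0.0532 without whole muscle 1 and 2). The mitochondrial creatine kinase Ckmt2 had 275, 4269 and 434 CPM in single fibers and 1590, 1825 and 1683 CPM in whole muscle: fiber 2 lay above the muscle, and fibers 1 and 3 below it.

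Fatty acid genes were lower in 7 of 21 and higher in none (median −0.67), with 4 lower with any 1 whole muscle library left out. Cd36, the fatty acid transporter, had 13.0, 67.0 and 33.9 CPM in single fibers and 361, 307 and 285 CPM in whole muscle (log2 fold change −3.06, SE 0.56, adjusted p = 0.0068). Lipoprotein lipase (Lpl) had 8.24, 119 and 14.2 CPM in single fibers and 388, 360 and 360 CPM in whole muscle. Lpl passed at an adjusted p of 0.0428 and was lost with any 1 library other than single fiber 2 left out (0.0557 to 0.112). Both genes are also expressed by capillary or fat cells. The endothelial and fat marker sums given above were lower in single fibers. Among the fibers Cd36 and Lpl were highest in fiber 2, as was the fat sum, which is mostly Car3. The endothelial sum was lowest in fiber 2, at 15.6, 2.39 and 5.21 CPM in single fibers 1 to 3. The part of these cells in the difference was not tested. Acads, the short-chain acyl-CoA dehydrogenase, had 5.92, 7.34 and 4.34 CPM in single fibers and 48.0, 50.1 and 49.6 CPM in whole muscle (log2 fold change −3.06, SE 0.29, adjusted p = 0.000722). Fabp3, the muscle fatty acid binding protein, had 186, 896 and 134 CPM in single fibers and 416, 533 and 533 CPM in whole muscle. Without single fiber 2, 18 of 22 fatty acid genes were lower and 1 higher, with a median of −1.55. For all 7 called genes fiber 2 was the fiber nearest to whole muscle.

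The citric acid cycle showed the same split among fibers. Of 23 genes 2 were lower, among them Idh2 (log2 fold change −1.74, SE 0.24, adjusted p = 0.00278), and none higher (median 0.12, or 0.00 with upper-quartile scaling), but 10 were lower without single fiber 2, with a median of −0.35, and 1 with any 1 whole muscle library left out. Their summed level was 6978, 18027 and 6519 CPM in single fibers, against 9938, 10415 and 9419 CPM in whole muscle. Sdhb, the iron-sulfur subunit of succinate dehydrogenase, had 548, 2221 and 515 CPM in single fibers and 818, 860 and 850 CPM in whole muscle, with fiber 2 above the muscle and the other fibers under it. Of 47 nuclear-encoded respiratory chain genes 10 were higher and 1 lower (median 0.87), 0 to 3 with any 1 whole muscle library left out, and without single fiber 2 it was 10 higher and 8 lower with a median of 0.13. Cox8b, a muscle isoform of cytochrome oxidase, had 1877, 3688 and 1696 CPM in single fibers and 332, 570 and 644 CPM in whole muscle (log2 fold change 2.23, SE 0.42, adjusted p = 0.00773; 0.0518 without whole muscle 2).

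**Figure D3:**
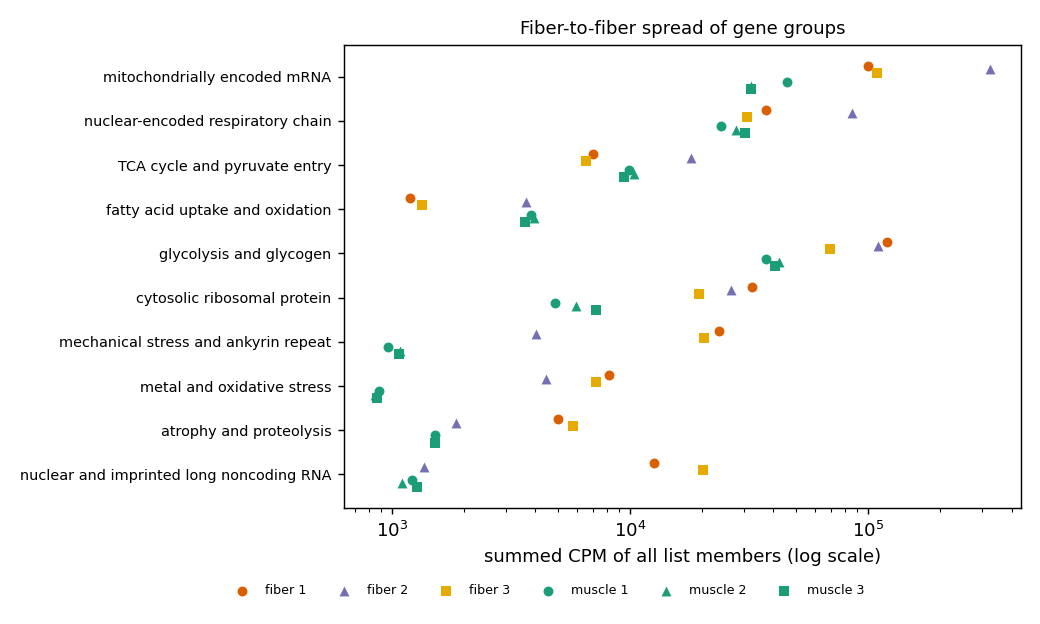
Summed CPM of all members of 10 gene groups (y axis) in each library (x axis, log scale), single fibers drawn above whole muscle within each group. Fiber 2 lies to the right of the other fibers for the mitochondrial groups and to the left of them for the mechanical stress, metal and oxidative stress, atrophy and long noncoding RNA groups.

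Messenger RNA made by the mitochondrial genome rose: 10 of 13 were higher and none lower (median 2.60), 3 or 4 with any 1 whole muscle library left out. mt-Nd1, a complex I subunit, had 22036, 85521 and 29618 CPM in single fibers and 8320, 5599 and 5601 CPM in whole muscle (log2 fold change 2.81, SE 0.59, adjusted p = 0.0105). mt-Cytb had 22286, 105983 and 19823 CPM in single fibers and 12384, 9004 and 9016 CPM in whole muscle (log2 fold change 2.28, SE 0.70, adjusted p = 0.0386). Fiber 2 was highest for each. With any 1 whole muscle library left out, these adjusted p were 0.0531 to 0.07 for mt-Nd1 and 0.119 to 0.152 for mt-Cytb. The group took 6.59%, 19.6% and 8.88% of reads in single fibers and 6.88%, 4.64% and 4.51% in whole muscle, with overlap (exact permutation p = 0.2, adjusted 0.3). Reads of mt-Nd4 and mt-Co2 are uncertain, since 62.3% and 100% of their windows also occur in other annotated transcripts. The mitochondrial large rRNA mt-Rnr2 rose as well (log2 fold change 1.87, SE 0.36, adjusted p = 0.00796; 0.057 to 0.071 with any 1 whole muscle library left out).

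Among the groups of muscle and cell function, ribosomal protein genes had the largest share of members higher. Of 78 tested, 75 were higher and none lower (median 2.07), 57 to 70 with any 1 whole muscle library left out and 73 to 76 with any 1 fiber left out. A fit on all 12 libraries called 41 of 79 higher. Rps28 had 366, 390 and 315 CPM in single fibers and 31.8, 44.8 and 49.3 CPM in whole muscle (log2 fold change 3.09, SE 0.28, adjusted p = 0.000635). Rpl3 was an exception, at 33.3, 24.5 and 35.9 CPM in single fibers and 33.1, 31.5 and 34.2 CPM in whole muscle. Many copies of ribosomal protein genes share sequence (58.1% of the Rpl3 windows and 83.3% of the Rpl36 windows), which makes single members uncertain. The whole group took 1.78 ± 0.32% of reads in single fibers and 0.863 ± 0.137% in whole muscle (SD, n = 3 each; exact permutation p = 0.1, adjusted 0.2). Of the 75, 70 had a larger share in every fiber than in every whole muscle library. Fold changes varied with exon length. The median log2 fold change was 1.18 for 867 genes under 1 kb and 0.14 for 1686 genes of 1 to 2 kb. It was −0.36 for 4098 genes of 2 to 4 kb and 0.07 for 2362 genes over 8 kb. Among genes of at least 100 CPM these 4 classes had 1.34, 1.07, 0.59 and 1.12. The median exon length of the ribosomal protein genes was 1770 bases. The part of length in the ribosomal protein, titin and other results was not tested.

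Translation factors followed, with 22 of 36 higher and 2 lower (median 1.33; 6 to 11 higher with any 1 whole muscle library left out). Pabpc1, the poly(A) binding protein, had 781, 89.8 and 770 CPM in single fibers and 53.7, 49.2 and 55.8 CPM in whole muscle. Eif1, the start codon factor, had 1529, 1561 and 1075 CPM in single fibers and 385, 397 and 461 CPM in whole muscle. Both passed, Pabpc1 at an adjusted p of 0.0118 that became 0.0626 to 0.0658 with any 1 whole muscle library left out. The 2 lower genes were the paralogues of elongation factor 1 alpha, Eef1a1 and Eef1a2 (log2 fold changes −1.48 and −1.44), named after their values were seen. Of 46 mitochondrial ribosomal protein genes 11 were higher and none lower (median 0.54; 2 to 5 with any 1 whole muscle library left out). Without single fiber 2, 12 were higher and 6 lower with a median of 0.21, and without single fiber 3, 17 were higher. Of 31 proteasome subunits 2, Psmc2 and Psmd7, were higher (median 0.57; 0 with any 1 whole muscle library left out). Without single fiber 2, 7 were higher and 4 lower with a median of 0.084, and without single fiber 3, 11 were higher. An annotated ribosomal RNA locus, CT010467.1, was among the most abundant features of the fibers, at 107977, 33917 and 34725 CPM in single fibers and 3732, 4625 and 6840 CPM in whole muscle (log2 fold change 3.54, SE 0.60, adjusted p = 0.0054); 66.7% of its windows occur elsewhere.

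**Figure D4:**
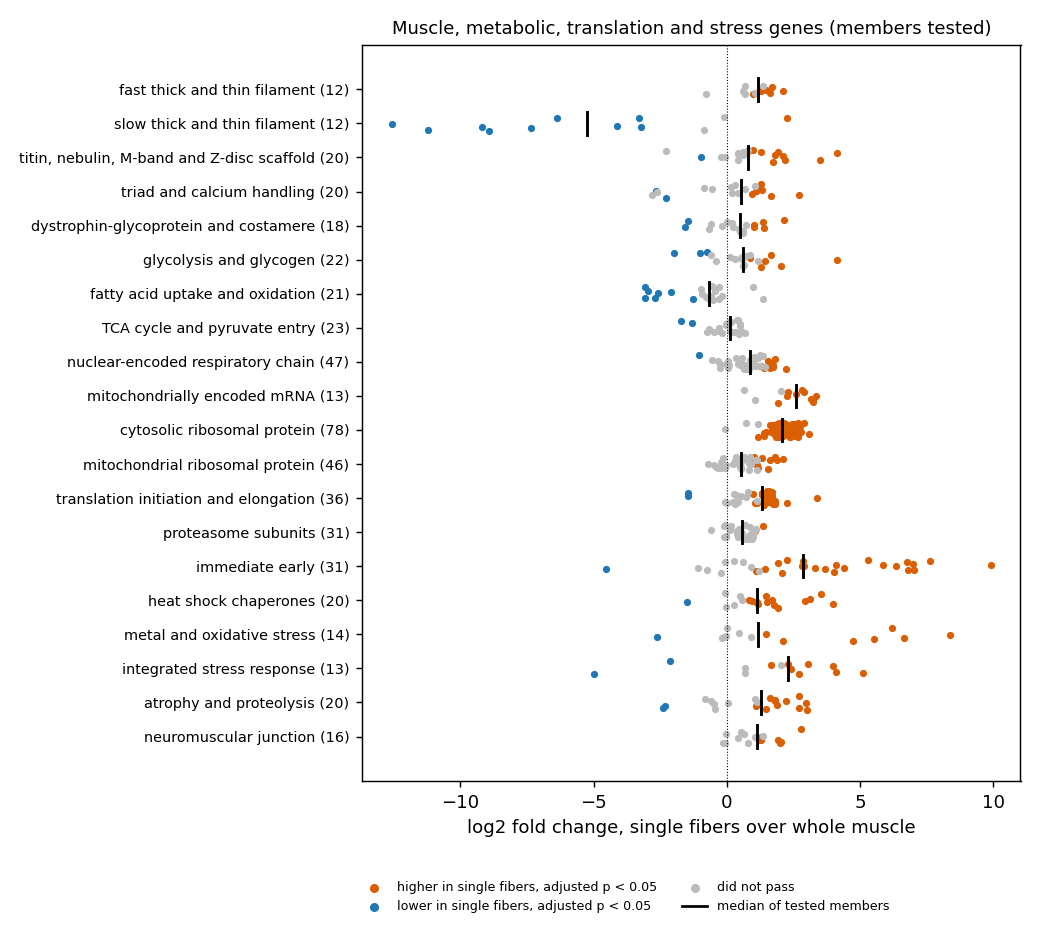
Log2 fold change of single fibers over whole muscle (x axis) for the tested members of 20 gene groups (y axis, number tested in brackets); orange points were higher, blue points lower and grey points did not pass at adjusted p under 0.05, and the black bar is the group median. Nearly all ribosomal protein genes lie to the right of 0, around a median of 2.07, and immediate early genes spread from −4.54 to 9.90.

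Immediate early genes, which cells transcribe within minutes of a stimulus without new protein synthesis, rose in 22 of 31 tested and fell in 1 (median 2.86). With any 1 whole muscle library left out, 11 to 13 were higher, and without single fiber 1, 2 or 3 it was 18, 24 and 16. Atf3, a stress-induced transcription factor, had 630, 757 and 573 CPM in single fibers and 5.33, 4.15 and 5.64 CPM in whole muscle (log2 fold change 7.02, SE 0.33, adjusted p = 0.000151). Fos, a subunit of the AP-1 factor, had 293, 1503 and 338 CPM in single fibers and 7.55, 8.97 and 9.47 CPM in whole muscle (log2 fold change 6.36, SE 0.77, adjusted p = 0.0017). The groups are far apart for each gene, and fiber 2 was the highest fiber for both. Egr1, a zinc finger factor, had 1226, 504 and 2376 CPM in single fibers and 10.6, 12.3 and 15 CPM in whole muscle. Nr4a3, an orphan nuclear receptor, had 107, 49.2 and 173 CPM in single fibers and 0.656, 0.454 and 0.581 CPM in whole muscle. Fosl1, another Fos family member, had 7.52, 1.19 and 10.9 CPM in single fibers and no read in whole muscle, at least 134-fold higher; 59.0% of its windows lie in other transcripts. Klf2, a factor that endothelial cells express under flow, was the member that fell, with 0.40, 1.97 and 0.193 CPM in single fibers and 18.7, 23.2 and 21.4 CPM in whole muscle.

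Promoters of this group are shown for genes whose 250 bases before the RefSeq start (GRCm38.p6) hold a known response element, since early genes are textbook targets of CREB, which binds the cyclic AMP response element (CRE, TGACGTCA), and of serum response factor, which binds the CArG box. Capitals mark the matches. The promoter table gave 25 of the 32 listed genes. Btg2, an antiproliferative gene on the minus strand (chr1:134079156-134079405), and Dusp1, a MAP kinase phosphatase on the minus strand (chr17:26508473-26508722), each hold 1 CRE. Dusp5, a phosphatase of ERK on the plus strand (chr19:53528895-53529144), holds 2 adjoining CArG boxes.
Btg2: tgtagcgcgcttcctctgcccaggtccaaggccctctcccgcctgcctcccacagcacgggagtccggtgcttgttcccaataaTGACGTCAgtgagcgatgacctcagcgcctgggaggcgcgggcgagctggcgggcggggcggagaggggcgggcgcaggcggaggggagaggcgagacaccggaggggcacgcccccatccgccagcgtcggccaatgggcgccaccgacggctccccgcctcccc
Dusp1: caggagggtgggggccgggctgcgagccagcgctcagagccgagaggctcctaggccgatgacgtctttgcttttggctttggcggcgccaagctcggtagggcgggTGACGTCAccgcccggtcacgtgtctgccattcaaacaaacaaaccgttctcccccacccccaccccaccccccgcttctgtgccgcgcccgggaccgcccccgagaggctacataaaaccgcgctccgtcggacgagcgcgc
Dusp5: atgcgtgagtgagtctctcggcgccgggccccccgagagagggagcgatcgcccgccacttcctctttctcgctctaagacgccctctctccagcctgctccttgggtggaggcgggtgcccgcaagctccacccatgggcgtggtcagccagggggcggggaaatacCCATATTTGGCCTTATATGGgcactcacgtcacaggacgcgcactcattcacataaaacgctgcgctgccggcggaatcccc
The CRE was found for 3 of the 25 genes (Btg2, Dusp1 and Maff, 12%) and for 1.77% of 27025 genes in all. The CArG box was found in 3 (Dusp5, Egr2 and Zfp36; 12%) and in 1.62% of all, with both strands searched. A match describes these letters and is no sign of binding. The genes that share an element did not move alike. Btg2 rose to 1613, 931 and 1808 CPM in single fibers, against 24.1, 26 and 25.1 CPM in whole muscle (log2 fold change 5.85, SE 0.38, adjusted p = 0.000234). Dusp1 had 175, 106 and 220 CPM in single fibers and 82.2, 74.5 and 80.4 CPM in whole muscle (log2 fold change 1.08, SE 0.30, adjusted p = 0.0296), and its call was lost without single fiber 1 or 3 or any 1 whole muscle library (adjusted p = 0.0672 to 0.137). Dusp5 had 154, 1.25 and 232 CPM in single fibers and 1.56, 1.29 and 0.684 CPM in whole muscle: fibers 1 and 3 lay over 50 times above the muscle and fiber 2 at its level (adjusted p = 0.0144; 0.0689 to 0.0794 with any 1 whole muscle library left out).

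Chaperones of the heat shock response rose in 14 of 20 and fell in 1 (median 1.14; 2 to 4 higher with any 1 whole muscle library left out). The small heat shock protein Cryab, alpha B crystallin, had 3956, 1803 and 5009 CPM in single fibers and 390, 474 and 549 CPM in whole muscle (log2 fold change 2.93, SE 0.43, adjusted p = 0.00321). Hspb8, a small heat shock protein of chaperone-assisted autophagy, had 4020, 344 and 4873 CPM in single fibers and 185, 191 and 209 CPM in whole muscle (log2 fold change 3.98, SE 0.86, adjusted p = 0.0117; 0.0646 to 0.0655 with any 1 whole muscle library left out). Hspa1a, the inducible Hsp70, stayed low, at 21.0, 1.91 and 16.1 CPM in single fibers and 1.15, 0.768 and 1.47 CPM in whole muscle (adjusted p = 0.0163; 0.0688 to 0.0845 with any 1 whole muscle library left out). It shares 66.6% of its windows with other loci, so it cannot be told from its copy Hspa1b. Hspb1 had 309, 462 and 214 CPM in single fibers and 81.6, 94.0 and 133 CPM in whole muscle. Its promoter (chr5:135887669-135887918, plus strand, GRCm38.p6) holds 2 heat shock elements, the site of heat shock factor, searched as GAANNTTC and shown in capitals.
Hspb1: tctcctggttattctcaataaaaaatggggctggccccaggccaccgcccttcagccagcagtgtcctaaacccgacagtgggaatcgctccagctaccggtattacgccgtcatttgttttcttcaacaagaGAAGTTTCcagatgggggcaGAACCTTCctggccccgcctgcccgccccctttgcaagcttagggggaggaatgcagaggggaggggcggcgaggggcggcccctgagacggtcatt
This element was found for 7 of the 15 chaperone genes with a promoter searched (46.7%) and for 7.73% of all 27025 genes. Hspb1 rose by 1.68 on the log2 scale (SE 0.35, adjusted p = 0.0108; 0.0672 and 0.0714 without whole muscle 1 and 2), and 51.4% of its windows are shared with other loci.

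The metal and oxidative stress group held some of the largest rises: 7 of 14 were higher and 1 lower (median 1.18, or 0.78 and 0.60 without single fiber 1 and 3; 4 higher with any 1 whole muscle library left out). Mt1, a metallothionein that binds zinc and copper, had 4038, 2856 and 2258 CPM in single fibers and 20.4, 29.9 and 40.2 CPM in whole muscle (log2 fold change 6.66, SE 0.45, adjusted p = 0.000283). Its neighbour on chromosome 8, Mt2, had 491, 119 and 369 CPM in single fibers and 0.985, 0.873 and 1.06 CPM in whole muscle (log2 fold change 8.38, SE 0.65, adjusted p = 0.000403). Every fiber was at least 50 times above every whole muscle library for both, though 46.6% of the Mt2 windows are shared with other loci. Srxn1, sulfiredoxin, an Nrf2 target, had 1509, 55.0 and 2199 CPM in single fibers and 14.9, 18.1 and 18.2 CPM in whole muscle, with fiber 2 far nearer to the muscle than fibers 1 and 3 (adjusted p = 0.00804; 0.0519 to 0.0537 with any 1 whole muscle library left out). Other Nrf2 targets such as Nqo1, Gclm and Gsr did not pass, with log2 fold changes of −0.17, −0.10 and −0.01. The element TGCGCNC, bound by the metal-responsive factor, was found in the promoters of Mt2, Srxn1, Gclm and G6pdx, 4 of 12 searched, against 14% of all searched.

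Genes of the integrated stress response rose in 8 of 13 tested and fell in 2 (median 2.30; 3 or 4 higher with any 1 whole muscle library left out). Ddit3, which encodes CHOP, had 300, 515 and 178 CPM in single fibers and 8.78, 10.2 and 9.44 CPM in whole muscle (log2 fold change 5.13, SE 0.45, adjusted p = 0.000558). Atf4, the central factor of the pathway, had 730, 128 and 536 CPM in single fibers and 92.0, 88.6 and 102 CPM in whole muscle and was not called without single fiber 1 or 3 or any 1 whole muscle library (adjusted p = 0.0513 to 0.0908). Its target Chac1 had 188, 28.6 and 42.7 CPM in single fibers and 2.71, 5.48 and 6.98 CPM in whole muscle. Ddit4, an mTORC1 inhibitor, fell, with 3 reads over the fibers and 2.02 to 3.21 CPM in whole muscle. Gadd45g, a growth arrest gene that denervation is known to raise, had 192, 1023 and 145 CPM in single fibers and 24.9, 25.6 and 35.3 CPM in whole muscle. The calls of Gadd45g, Chac1 and Ddit4 each depended on whole muscle libraries: 0.0511 to 0.0554 for Gadd45g with any 1 left out, 0.0504 and 0.0519 for Chac1 without whole muscle 1 and 2, and 0.0627 and 0.0524 for Ddit4 without whole muscle 2 and 3.

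**Figure D5:**
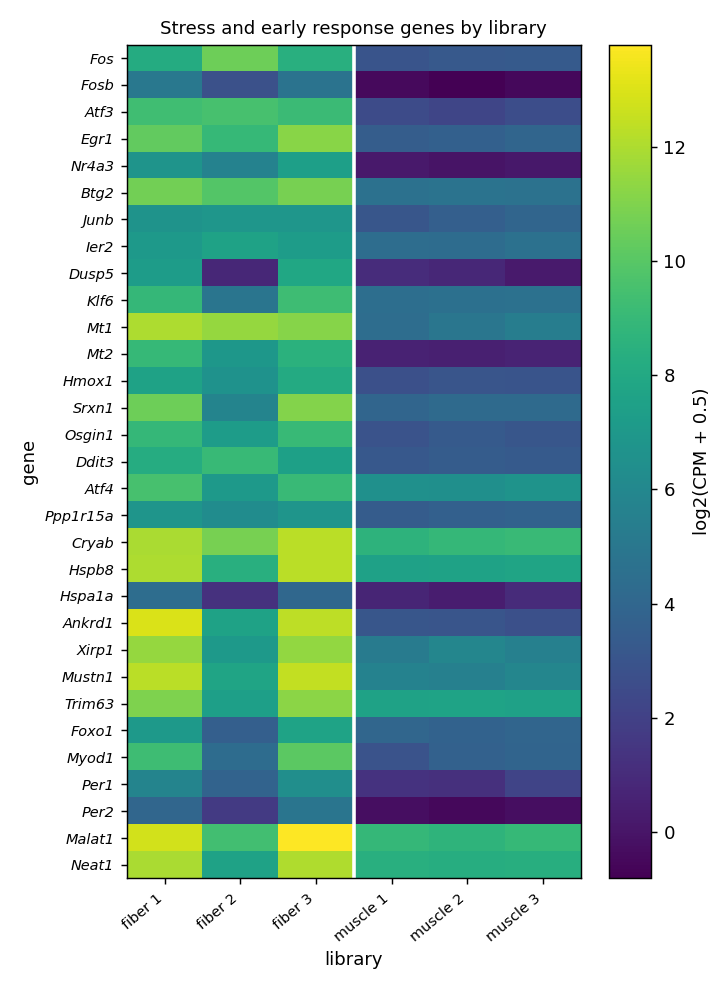
Level of 31 stress, early response and related genes (rows) in each library (columns, single fibers left of the white line and whole muscle right of it), as log2(CPM + 0.5) in colour. All fibers are brighter than whole muscle for Atf3, Btg2, Mt1 and Ddit3, while fiber 2 is close to whole muscle for Dusp5, Trim63, Foxo1, Malat1 and Neat1.

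Among mechanical stress genes 5 of 11 were higher and 1 lower (median 0.40; 3 higher with any 1 whole muscle library left out). The median was 0.025, 0.91 and 0.057 without single fiber 1, 2 and 3. Ankrd1, a titin-associated ankyrin repeat protein that stretch and injury are known to induce, had 7844, 195 and 5173 CPM in single fibers and 7.96, 7.82 and 6.29 CPM in whole muscle (log2 fold change 9.23, SE 1.37, adjusted p = 0.00328). Mustn1, a small nuclear protein of the musculoskeletal system, had 4923, 210 and 5610 CPM in single fibers and 49.2, 45.6 and 58.4 CPM in whole muscle (log2 fold change 6.13, SE 1.12, adjusted p = 0.00684). No level overlaps for either gene, yet fiber 2 lay more than 20 times below the other fibers. Xirp1, the Xin repeat protein, showed the same order, with 2870, 130 and 2776 CPM in single fibers and 38.5, 58.2 and 46.7 CPM in whole muscle (adjusted p = 0.00847; 0.0516 to 0.0561 with any 1 whole muscle library left out). For all 6 called genes of the group fiber 2 was the fiber nearest to whole muscle.

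Atrophy and proteolysis genes were higher in 11 of 20 and lower in 2 (median 1.29), but 0 or 1 were higher with any 1 whole muscle library left out and 5 and 6 without single fiber 1 and 3. Trim63, the ubiquitin ligase MuRF1, had 2009, 169 and 2470 CPM in single fibers and 194, 200 and 187 CPM in whole muscle (log2 fold change 3.00, SE 0.82, adjusted p = 0.0272; 0.0636 to 0.113 with any 1 library other than single fiber 2 left out). Foxo1, the factor that drives it, had 128, 11.9 and 198 CPM in single fibers and 15.4, 13.3 and 14.9 CPM in whole muscle (adjusted p = 0.03; 0.0652 to 0.119 with any 1 library other than single fiber 2 left out). For both genes fibers 1 and 3 lay well above the muscle and fiber 2 a little below it.

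Neuromuscular junction genes, normally transcribed by the nuclei under the nerve ending, were higher in 7 of 16 and lower in none (median 1.13, or 0.66 without single fiber 2; 0 or 1 with any 1 whole muscle library left out). Chrna1, the acetylcholine receptor alpha subunit, had 73.5, 133 and 55.6 CPM in single fibers and 20.8, 21.5 and 27.8 CPM in whole muscle (log2 fold change 1.90, SE 0.37, adjusted p = 0.00821; 0.0554 and 0.0581 without whole muscle 1 and 2). Dok7, the adaptor of the MuSK receptor, had 123, 15 and 117 CPM in single fibers and 10.5, 11.6 and 14.5 CPM in whole muscle (adjusted p = 0.0193; 0.0519 to 0.0913 with any 1 library other than single fiber 2 left out). At the myotendinous junction 2 of 9 genes were higher, Ankrd1 and Tln2, and 1, Tigd4, was lower (median 0.62, or 0.19 without single fiber 1; 1 higher and 0 lower with any 1 whole muscle library left out).

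Of 30 myogenic and fiber-type transcription factors 9 were higher and 4 lower (median 0.37, or 0.14 without single fiber 1; 4 higher and 0 lower with any 1 whole muscle library left out). Myod1, the myogenic master factor, had 601, 19.7 and 1103 CPM in single fibers and 7.14, 12.5 and 14.4 CPM in whole muscle (log2 fold change 5.66, SE 1.25, adjusted p = 0.0126). Myog, myogenin, which usually follows it, fell, with 1.04, 0.0596 and 1.16 CPM in single fibers and 10.8, 10.8 and 8.24 CPM in whole muscle (log2 fold change −3.77, SE 0.81, adjusted p = 0.0113). Both calls were lost with any 1 whole muscle library left out, at 0.0654 to 0.0688 for Myod1 and 0.0523 to 0.0589 for Myog. Mef2c, which activates muscle genes, and Sox6, a repressor of slow genes, rose by 1.77 (SE 0.27) and 1.67 (SE 0.24). Ppargc1a, the coactivator of mitochondrial biogenesis, had 134, 39.5 and 247 CPM in single fibers and 18.5, 18.4 and 18.4 CPM in whole muscle (adjusted p = 0.00966; 0.0562 to 0.0591 with any 1 whole muscle library left out), so fiber 2, with the highest mitochondrial mRNA, had the least of it among the fibers.

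Clock genes were higher in 7 of 19 and lower in 2 (median 0.74; 3 higher with any 1 whole muscle library left out, and 11 higher and 4 lower without single fiber 2). Per1 and Per2, the period repressors, which stimuli also induce directly, had 54.7, 13.5 and 83.3 CPM and 15.7, 2.74 and 28.3 CPM in single fibers, against 1.97, 1.78 and 4 CPM and 0.328, 0.209 and 0.342 CPM in whole muscle (log2 fold changes 4.27, SE 0.71, and 5.71, SE 0.91; adjusted p = 0.00492 and 0.00424). The 2 lower genes were Arntl and Npas2, members of the activating arm, named after their values were seen (log2 fold changes −1.47 and −2.91).

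Of 15 secreted factors attributed to muscle that were tested, 7 fell and 1 rose (median −2.03; 2 or 3 lower and 0 higher with any 1 whole muscle library left out, and 11 lower without single fiber 2). Sparc, a matrix glycoprotein, had 36.7, 11.1 and 16.7 CPM in single fibers and 1050, 930 and 1183 CPM in whole muscle (log2 fold change −5.62, SE 0.53, adjusted p = 0.000712). Sparc and Dcn, both lower, are also fibroblast genes, and the part of the scarce fibroblast reads in this group was not tested. The gene that rose was the angiogenic factor Vegfa, at 239, 139 and 317 CPM in single fibers and 84.4, 80.4 and 84.2 CPM in whole muscle (log2 fold change 1.48, SE 0.33, adjusted p = 0.0126; 0.0665 to 0.0751 with any 1 whole muscle library left out). Of 12 chemokine and NF-kB genes tested, 4 rose and 1 fell (median 1.75; 0 or 1 higher with any 1 whole muscle library left out). Without single fiber 1, 4 were higher and 4 lower with a median of 0.37. Cxcl1, a neutrophil chemokine, owed its mean to fiber 1, with 209, 3.10 and 2.22 CPM in single fibers and 0.903, 0.698 and 0.547 CPM in whole muscle (adjusted p = 0.0285; 0.106 to 0.121 with any 1 whole muscle library left out).

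Nuclear long noncoding RNA rose in 5 of 10 tested and fell in 1 (median 1.68; 2 higher with any 1 whole muscle library left out). The median was 0.10, 0.55 and 0.12 without single fiber 1, 2 and 3 and 0.19 without whole muscle 2. Malat1, a speckle RNA kept in the nucleus, had 7127, 657 and 14139 CPM in single fibers and 472, 405 and 501 CPM in whole muscle (log2 fold change 3.99, SE 0.94, adjusted p = 0.0159). Neat1, the scaffold of paraspeckles, had 3933, 196 and 4235 CPM in single fibers and 340, 313 and 321 CPM in whole muscle (log2 fold change 3.10, SE 0.93, adjusted p = 0.036). Gas5, a growth arrest RNA that also hosts small nucleolar RNAs, was more even, at 364, 217 and 380 CPM in single fibers and 31.2, 35.3 and 36.3 CPM in whole muscle (log2 fold change 3.22, SE 0.30, adjusted p = 0.000722). Malat1 and Neat1 were high in fibers 1 and 3, while in fiber 2 Malat1 was slightly above and Neat1 below whole muscle. With any 1 whole muscle library left out, the adjusted p were 0.078 to 0.0822 for Malat1 and 0.126 to 0.133 for Neat1.

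The spread among the single fibers had its own pattern. The 10 protein-coding genes with the largest spread over the fibers, among those of at least 50 CPM in the fibers, were all lowest in fiber 2, at 0 to 17.3 CPM. Cgref1, for example, had 345, 0.0596 and 236 CPM in single fibers 1 to 3, against 2.30, 2.27 and 4.99 CPM in whole muscle. Lpin2, a phosphatidate phosphatase, had 133, 0.239 and 218 CPM in single fibers and 3.77, 3.07 and 2.02 CPM in whole muscle. Both passed (adjusted p = 0.0425 and 0.0393) and lost the call with any 1 library other than single fiber 2 left out. Stra6l, a retinol binding protein receptor homologue, and Sprr1a, an injury-induced cornified envelope gene, had reads in fibers 1 and 3 and none in fiber 2, and did not pass the filter on low counts. Cd68, Dusp5, Sgms2, Rrad, Plk2 and Fam102a made up the rest. Over all 4716 called genes, fiber 1, 2 and 3 was counted as nearest to whole muscle in 1708, 1609 and 1399 (36.2%, 34.1% and 29.7%). The fiber 1 count is too high, since it includes 394 genes with no read in any fiber, where all 3 tie. Against these shares, fiber 2 was nearest in 17 of 23 called immediate early genes, 7 of 8 metal and oxidative stress genes and 10 of 13 atrophy genes. Fiber 3 was nearest in 68 of 75 ribosomal protein genes, and fiber 1 in 14 of 16 fibroblast markers. All 8 called tendon markers were counted for fiber 1, but 3 of them had no read in any fiber and are ties. These counts describe 3 cells and carry no test.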

How the data were processed

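Counts of reads per gene, as deposited by the authors, were used for 6 libraries; per the submitters' processing notes they were made with HISAT2, SAMtools and featureCounts on GRCm38 (mm10). Tool versions, strand and multi-mapping settings are not given in the sources used here. Of 55573 gene IDs, 55480 matched GENCODE vM21. Genes were filtered with edgeR's filterByExpr, scaled by TMM and tested with edgeR 4.0.16 (R 4.3.3), quasi-likelihood, Benjamini-Hochberg adjustment over 14028 genes, on the 6 libraries with no covariate. The fit was tested on simulated data with the same spread in both groups, which does not cover the wider spread among the fibers. Totals ran from 8088137 to 27787120 reads. Library measures used exact permutation tests (SciPy 1.17.1). The members and gene lists were chosen with earlier results of these data known. Named genes are the 12 largest non-overlapping changes in each direction outside the lists (mean of at least 10 CPM), in each list the 3 most abundant and the 3 most changed members, and the 10 most variable between fibers (at least 50 CPM); further list members were named after their values were seen. Stray reads are the 99th percentile of reads per kilobase on 1506 receptor genes. Shared sequence is the percent of 50-base exon windows found in other annotated genes. Sequences are from RefSeq, and promoters on chromosome 18 were left out. Alternatives were RLE and upper-quartile factors, other filters, DESeq2 1.42.0, a replicate block, all 12 libraries, thinning and leaving out each library. Some members of the lists are counted but not reported by name here.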

Additional observations from a re-analysis of the deposited data

How the results depend on the processing

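Of 4716 calls (1945 higher, 2771 lower), RLE factors gave 4707, upper-quartile factors 4613, no filter 5594, a minimum mean CPM 4330, thinned reads 4529 and DESeq2 5881. A fit on all 12 libraries gave 2854, with 996 higher, among them 1 of 12 fast filament, 41 of 79 ribosomal protein, 2 of 36 translation, 3 of 20 heat shock and 0 of 47 respiratory chain genes. Leaving out a library gave 1540 to 7617 calls, 394 to 3304 higher and 1134 to 4313 lower. The labels do not say whether replicate numbers pair the libraries. Deviations from the group means had same-number correlations of -0.0466, 0.0227 and -0.0498, against -0.0169 to 0.0628 for other numbers. With no known pair to compare, these cannot settle whether libraries are paired. With the replicate block 3132 genes were called, 1028 of them higher, and the medians of the mechanical stress, chemokine and citric acid cycle groups were -0.073, 0.68 and -0.002. No called gene changed sign. With a library left out, the difference in receptor-gene reads, in percentage points of single fibers over whole muscle, ran between -0.00056 (without single fiber 1) and 0.00251. With no filter the medians of the long noncoding RNA, chemokine, metal stress and citric acid cycle groups were 0.12, 0.68, 0.76 and -0.022, and that of mechanical stress 1.43. Some uncalled log2 fold changes turned sign, and the cause was not tested. With all 12 libraries Actn2 was 0.0046 and Ckmt2 0.085. With the replicate block Sdhb was -0.0016 and Cd3e -0.61. Thinned, Cdh15 was 0.058. With a library left out, Actn2 ran between -1.80 and 0.30, Ckmt2 between -2.29 and 0.40, Fabp3 between -1.64 and 0.076, Sdhb between -0.68 and 0.66, Idh3a between -0.35 and 0.61, Des between -0.13 and 0.72, Cd3e between -0.34 and 0.87, Bpgm between -0.11 and 0.62, Hes1 between -0.40 and 1.87 and Cdh15 between -0.28 and 0.20. Depth limits genes with few reads in the fibers, where bounds and counting intervals are given.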

Other observations

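The 10 most abundant genes took 37.9%, 37.8% and 30.7% of reads in single fibers, against 21.9%, 22.4% and 23.2% in whole muscle. Long intergenic noncoding RNA took 0.994%, 0.334% and 1.82% of reads in single fibers, against 0.47%, 0.436% and 0.463% in whole muscle, so fiber 2 lay below every whole muscle library and the other fibers above. Mitochondrial rRNA took 5.23 ± 2.03% of reads in single fibers and 2.58 ± 0.213% in whole muscle (SD, n = 3 each; exact permutation p = 0.1, two-sided, adjusted 0.2).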
